A study of Macaca fascicularis with 15 samples.

Results

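Retinal ganglion cells were followed through 5 genes, NEFL, NEFM, SNCG, POU4F2 and SLC17A6, across the whole eye, the whole retina and 2 regions of the retina of the cynomolgus monkey (Macaca fascicularis). The genes were taken by name from the deposited tables, and all 5 were found among the 12995 genes with a value. Of 15 sequenced samples, 11 had a table: 4 from central retina, 3 from peripheral retina, 2 from whole retina and 2 from whole eye. All animals were wild type with no treatment named, the tissue had been kept in RNALater, an RNA-preserving solution, and each sample came from 1 eye. The labels give no age and do not say whether central and peripheral samples came from the same or from separate animals. They also do not say whether the samples of 1 tissue came from separate animals. The spread within a tissue, on which the p-values rest, may thus be partly or wholly technical. The remaining 4 (whole eye and whole retina, 2 each) were not analysed here. They carry the same source names as the whole eye and whole retina libraries that were used. Whether they are further runs of those samples is not stated. The headers of the central tables use the word macula, the area of sharpest vision.

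Ganglion cells are the output neurons of the retina. They collect signals from bipolar and amacrine cells, use glutamate as transmitter, and send long axons across the inner surface of the retina into the optic nerve. In primates their cell bodies are piled up in several layers around the fovea and thin out towards the periphery. NEFL and NEFM encode the light and medium chains of neurofilaments, the filaments that fill large axons. SNCG encodes gamma-synuclein, a small protein abundant in ganglion cells and their axons. POU4F2 (BRN3B) is a transcription factor that ganglion cells need to differentiate and survive, and SLC17A6 (VGLUT2) loads glutamate into synaptic vesicles.

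The deposited values carry no stated unit and no read counts, so absolute depth is unknown and levels of different genes are not compared with each other. The number of genes listed at 0 ranged from 171 in whole eye replicate 1 to 501 in central retina replicate 1, and none of the 5 ganglion cell genes was among them. The marker genes of the pigment epithelium, the cell layer behind the retina, summed to 2477 to 2497 in the whole eyes and to 2158 to 2335 in the whole retinas, so the libraries labelled whole retina held these transcripts at nearly the level of the whole eyes. The same sum was 83.6 to 191 centrally and 400 to 605 peripherally.

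Central retina exceeded peripheral retina in all 5 ganglion cell genes, and for each of them every central library lay above every peripheral library. The share of all genes whose libraries separate in this way was not counted, here or in the comparisons below. The ratio of group means ran from 3.81 for SLC17A6 to 6.30 for NEFM. Over all 11933 genes tested, 12.5% were higher in central retina by the same test (limma on log2(value + 1), adjusted p under 0.05). The median log2 difference was 2.33 over the 5 genes and -0.01 over all genes. In whole tissue, more ganglion cells and more of these transcripts per cell cannot be told apart.

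**Figure D1:**
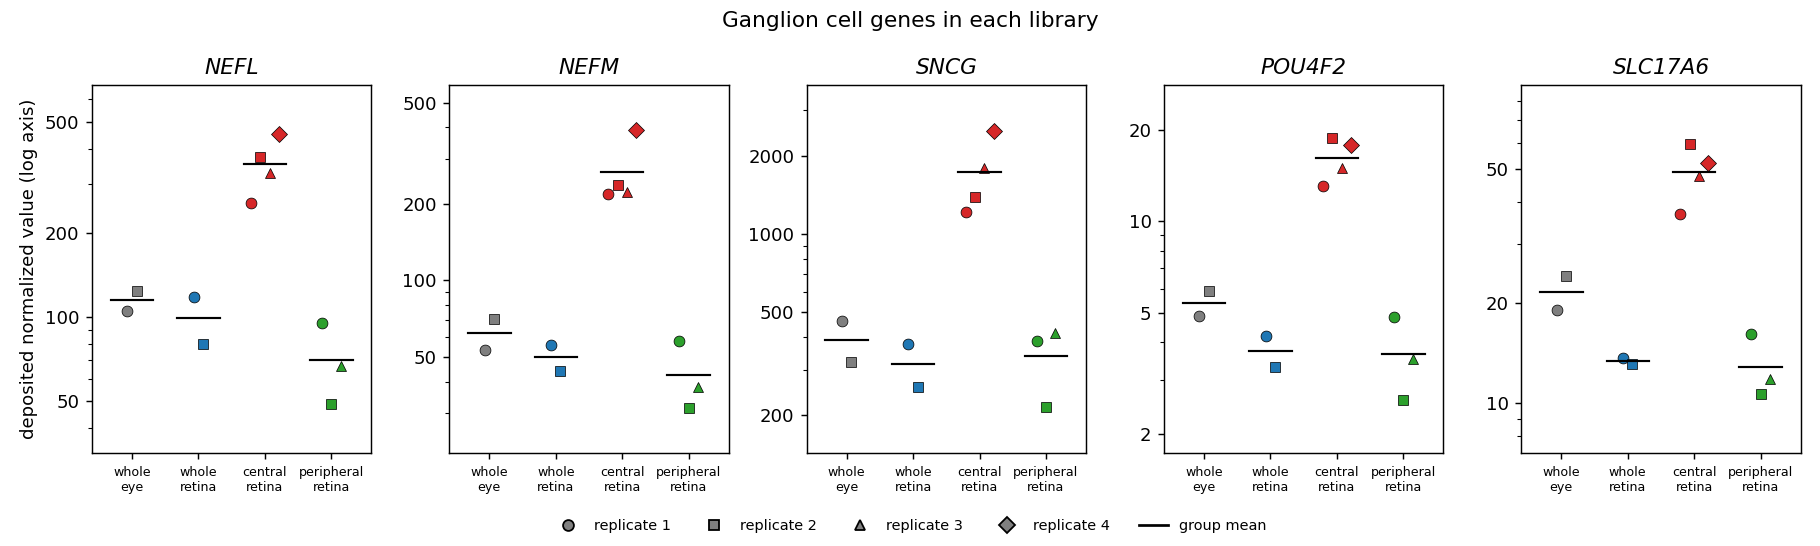
Deposited normalized values of the 5 genes in each of the 11 libraries, on log axes with a separate range for each gene; colours give the tissue, symbols the replicate number and bars the group mean. The 4 central libraries lie above the other 7 in every panel, while the remaining groups lie close together or overlap.

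Among the neurofilament genes, NEFL stood at 256.67, 374.87, 328.18 and 450.93 in central retina replicates 1 to 4. It stood at 95.27, 48.92 and 66.72 in peripheral retina replicates 1 to 3. In the whole eyes it was 105.49 and 123.93, and in the whole retinas 118.39 and 80.18. The lowest central library was thus above the highest of the other 7, and the largest spread, 1.95 times between highest and lowest, was in peripheral retina. The central mean of 353 ± 81.6 (SD, n = 4) was 5.02 times the peripheral mean of 70.3 ± 23.4 (SD, n = 3). The fitted log2 difference was 2.33 (SE 0.24, limma adjusted p = 0.000133), the 13th highest of the 11933 genes.

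NEFM, whose gene lies next to NEFL in the RefSeq annotation of the species (assembly T2T-MFA8v1.1), gave 218.58, 237.37, 221.72 and 390.80 in central retina. The peripheral libraries gave 57.66, 31.45 and 38.07. The whole eyes gave 53.12 and 70.75, and the whole retinas 55.58 and 44.16. Central replicates 1 to 3 lay close together and replicate 4 stood apart above them. NEFM had the highest ratio of the 5 genes, 267 ± 82.9 (SD, n = 4) against 42.4 ± 13.6 (SD, n = 3), or 6.30 times. Its log2 difference of 2.63 (SE 0.24, limma adjusted p = 7.76e-05) was the 5th highest of all genes, and without central replicate 4 it was 2.43 (adjusted p = 0.000208).

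SNCG reached 1217.04, 1395.71, 1802.40 and 2509.76 in central retina. It was 388.11, 214.18 and 414.92 in peripheral retina. The whole eyes stood at 460.76 and 319.97, and the whole retinas at 376.19 and 256.09. Central libraries differed among themselves by up to 2.06 times, the widest spread of any gene and group here, and still none came near the others. The means of 1731 ± 574 (SD, n = 4) and 339 ± 109 (SD, n = 3) gave a ratio of 5.11, and the log2 difference was 2.35 (SE 0.30, limma adjusted p = 0.000324).

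POU4F2, the one transcription factor of the 5, stood at 13.02, 18.74, 14.98 and 17.89 in central retina. Peripheral libraries held 4.84, 2.59 and 3.53. Values were 4.86 and 5.91 in the whole eyes and 4.19 and 3.31 in the whole retinas. Its central libraries were the tightest of the 5 genes in relative terms, with a coefficient of variation of 16.3%. The mean was 16.2 ± 2.64 (SD, n = 4) against 3.65 ± 1.13 (SD, n = 3), a ratio of 4.42, at a log2 difference of 1.90 (SE 0.18, limma adjusted p = 9.18e-05). The constant of 1 added before taking logarithms weighs on low values such as these: with a constant of 10 the POU4F2 difference was 0.94 (adjusted p = 0.000104).

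SLC17A6, the vesicular transporter, was 36.72, 59.54, 47.86 and 52.32 in central retina. In peripheral retina it was 16.15, 10.67 and 11.81. The whole eyes had 19.03 and 23.94, and the whole retinas 13.67 and 13.09. It showed the smallest regional ratio of the 5 genes, 3.81, from 49.1 ± 9.56 (SD, n = 4) and 12.9 ± 2.89 (SD, n = 3). The log2 difference was 1.85 (SE 0.18, limma adjusted p = 9.18e-05).

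In the retinal tissues the 5 genes often shared their lowest library, while in the whole eyes SNCG was higher in replicate 1 and the other 4 genes were higher in replicate 2. Central retina replicate 1 was the lowest central library for all 5 genes, peripheral replicate 2 the lowest peripheral library for all 5, and whole retina replicate 2 was below whole retina replicate 1 for all 5. Central replicate 4 was highest for NEFL, NEFM and SNCG, and central replicate 2 for POU4F2 and SLC17A6. Peripheral replicate 1 was highest for 4 genes and replicate 3 for SNCG. Central replicate 1 is also the library with the most genes listed at 0 (501). Peripheral replicate 2 (424) and whole retina replicate 2 (226) likewise listed the most in their groups. In the whole eyes replicate 2 listed 178 against 171 and was the higher library for 4 genes. This link was not tested. Without central replicate 1 the log2 differences between the regions ran from 1.98 (SLC17A6) to 2.71 (NEFM). Without peripheral replicate 2 they ran from 1.72 (POU4F2) to 2.44 (NEFM). All 5 genes were called higher in central retina in both of these fits.

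Across the 4 tissues, central retina ranked first and the whole eye second by mean for all 5 genes. Whole retina was next and peripheral retina last for NEFL, NEFM, POU4F2 and SLC17A6, while for SNCG the last 2 places were exchanged. Only the step from central retina to the rest was beyond the spread of the libraries for every gene.

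Central retina was above whole retina for all 5 genes, with ratios of means from 3.55 (NEFL) to 5.48 (SNCG) and no overlap of libraries. Limma's log2 differences ran from 1.78 (SE 0.20, SLC17A6) to 2.42 (SE 0.34, SNCG), and all 5 were called higher, against 18.9% of all genes. Against the whole eye the ratios ran from 2.29 (SLC17A6) to 4.43 (SNCG), again with 5 called higher and no overlap, against 21.0% of all genes. These comparisons share the central libraries. The balance of all calls in them depends on scaling: 38.9% of the calls against whole retina were higher as deposited, 59.5% after quantile normalization and 52.7% after scaling each library to the same sum. Against the whole eye these shares were 38.1%, 59.1% and 53.3%. The median of all genes moved from -0.10 to 0.12 against whole retina and from -0.17 to 0.10 against the whole eye with quantile normalization, and all 5 genes stayed called higher under both scalings. Marker sums of other cells differed in the same comparisons. Müller glia markers summed to 1653 to 2063 in central retina, 4568 to 4584 in whole retina and 4239 to 4782 in the whole eyes. Astrocyte markers summed to 4.74 to 24.1 in central retina, 128 to 153 in whole retina and 142 to 189 in the whole eyes. Of these markers GJA1 averaged 0.985, 94.1 and 119 in the same order, under a name that shares its start with another. The microglial sums were 8.83 to 13.8, 108 to 349 and 87.3 to 135, and the vascular sums 58.5 to 78.9, 236 to 287 and 217 to 261, in the same order of tissues. Each of these sums, like that of the pigment epithelium, was lower in every central library than in every whole retina and whole eye. The sums of bipolar cells, cones and amacrine cells went the other way, higher in every central library. Bipolar sums were 359 to 510, 239 to 244 and 213 to 236, again in the order central retina, whole retina, whole eyes. Cone sums were 3206 to 3962, 2375 to 2746 and 2629 to 2669, and amacrine sums 135 to 255, 128 to 130 and 124 to 126. Rod sums overlapped with both tissues, and CALB1 of horizontal cells with the whole eyes. The part of all these shifts in the result was not tested.

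No difference between peripheral and whole retina was called for any of the 5 genes. The libraries of these groups overlapped for each gene, and limma called 0 of 5, also at an unadjusted p under 0.05, against 34.2% of all genes called in either direction. The log2 difference was -0.52 for NEFL (95% confidence interval -1.16 to 0.12), -0.27 for NEFM (-0.91 to 0.37), 0.07 for SNCG (-0.71 to 0.85), -0.05 for POU4F2 (-0.53 to 0.42) and -0.07 for SLC17A6 (-0.54 to 0.40). The widest of these intervals, that of SNCG, spans a lower and a higher level alike, so equal levels are not shown. In this comparison 28.8% of all calls were higher as deposited, 60.9% after quantile normalization and 50.0% after scaling to the same sum, and POU4F2 and SLC17A6 took a positive sign under both scalings without being called.

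Between whole retina and whole eye limma called 0 of the 5 genes, against 2.27% of all genes called in either direction. Of the 5, SLC17A6 alone had an unadjusted p under 0.05 (log2 difference -0.64, SE 0.23, limma adjusted p = 0.333). The ratio of means lay between 0.623 (SLC17A6) and 0.866 (NEFL). For POU4F2 and SLC17A6 both whole retinas were below both whole eyes, and for the other 3 genes the libraries overlapped. With 2 libraries on each side such a separation carries little weight.

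Against the whole eye, peripheral retina had lower SLC17A6, by a log2 difference of -0.71 (SE 0.21, limma adjusted p = 0.0208), where 27.6% of all genes were called lower. Its mean was 12.9 ± 2.89 (SD, n = 3) against 21.5 ± 3.47 (SD, n = 2), a ratio of 0.599. The other 4 genes were not called. NEFL and POU4F2 lay below the whole eyes in every peripheral library, with log2 differences of -0.75 (limma adjusted p = 0.0612) and -0.48 (adjusted p = 0.0991), and NEFM and SNCG overlapped. The count of genes called lower was 4 without peripheral replicate 1, and 0 without peripheral replicate 2, without peripheral replicate 3 or without whole eye replicate 2. It was 0 under quantile normalization, under scaling to the same sum and with the replicate number as a block. Of all calls in this comparison 30.9% were higher as deposited, 61.6% after quantile normalization and 52.4% after scaling to the same sum, with the median of all genes at -0.14 as deposited and 0.14 after quantile normalization. The pigment epithelium sums given above, 2477 to 2497 in the whole eyes and 400 to 605 in peripheral retina, differ along with it. Also below the whole eyes were the peripheral sums for Müller glia (2986 to 3571), astrocytes (18.9 to 38.6), microglia (17.2 to 22.5) and vascular cells (64.2 to 99.9). Above the whole eyes in every peripheral library were rods (17880 to 26325, against 11892 to 12944) and cones (3110 to 3393, against 2629 to 2669). So were bipolar cells (271 to 289, against 213 to 236) and amacrine cells (147 to 282, against 124 to 126). CALB1 of horizontal cells overlapped. The part of all these shifts in the result was not tested.

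**Figure D2:**
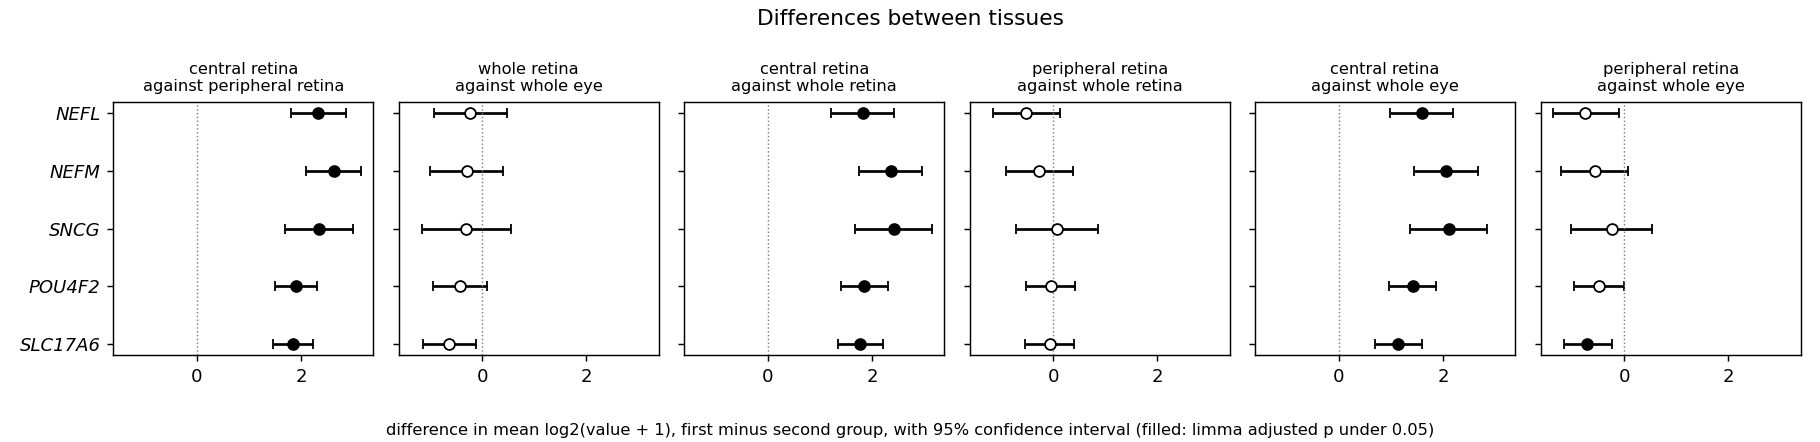
Differences in mean log2(value + 1) for the 5 genes in the 6 comparisons, first minus second tissue, with 95% confidence intervals; filled points have a limma adjusted p under 0.05. All 5 points are filled and to the right of 0 in the 3 comparisons of central retina, and SLC17A6 is the one filled point in the other 3.

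Ratios between the genes inside a library are not changed by a common scaling factor of the library. Of the 10 ratios that 5 genes allow, 5 separated all central from all peripheral libraries and 5 overlapped. The share of other gene pairs that separate in this way was not counted. Each of the 5 ratios that separated holds POU4F2 or SLC17A6, so they are not independent. POU4F2 over SLC17A6 was 0.313 to 0.355 in central retina, 0.243 to 0.300 in peripheral retina, 0.247 to 0.255 in the whole eyes and 0.253 to 0.307 in the whole retinas. It was the one ratio of the 10 with every central library above all other libraries. NEFM over SLC17A6 was 3.99 to 7.47 centrally and 2.95 to 3.57 peripherally, but whole retina reached 4.07. NEFM over POU4F2 separated the regions in the same direction (12.7 to 21.8 against 10.8 to 12.1).

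The neurofilament genes did not keep a fixed proportion to each other. NEFL over NEFM was 1.15 to 1.58 in central retina, below the 1.75 to 1.99 of the whole eyes and the 1.82 to 2.13 of the whole retinas. The peripheral range of 1.56 to 1.75 overlapped with the central one at its edge. NEFL over SNCG overlapped between the regions, at 0.180 to 0.269 centrally and 0.161 to 0.245 peripherally. No test was run on these ratios. They compare tissues and say nothing of which gene is more abundant.

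**Figure D3:**
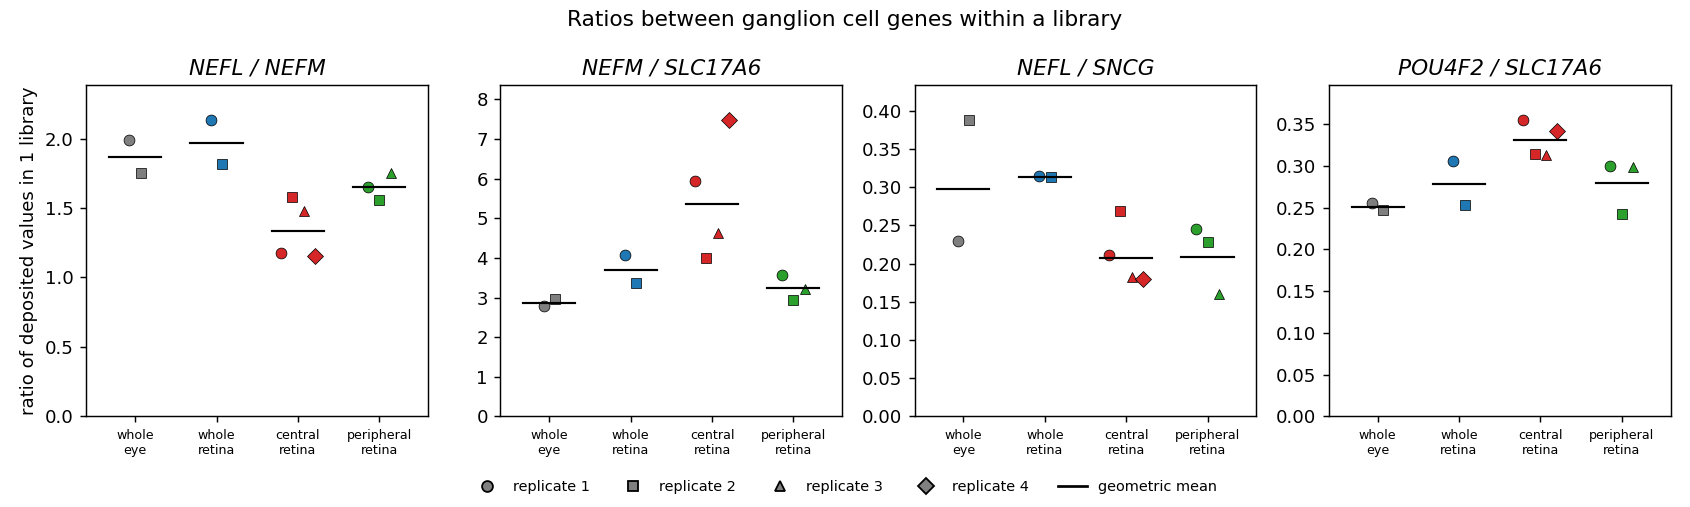
Ratio of the deposited values of a pair of genes in each library, on linear axes from 0; colours give the tissue, symbols the replicate number and bars the geometric mean. NEFL over NEFM is lowest in central retina and POU4F2 over SLC17A6 highest there, NEFM over SLC17A6 is above all peripheral libraries in central retina, and NEFL over SNCG overlaps between the regions.

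Relatives of the 5 genes were examined between central and peripheral retina in 4 small families. Among neuronal intermediate filaments all 4 genes tested were higher in central retina, against 12.5% of all genes. NEFL and NEFM are 2 of these 4 and are counted in the median log2 difference of 2.04. The difference was 1.05 for INA and 1.75 for PRPH. INA, alpha-internexin, averaged 139 ± 20.0 (SD, n = 4) against 66.8 ± 9.02 (SD, n = 3), and PRPH, peripherin, 75.6 ± 20.1 against 21.4 ± 2.77. Both of these names share their start with another name in the tables, which makes their values less certain. In the synuclein family, SNCB, beta-synuclein of presynaptic terminals, was 589 ± 119 in central and 383 ± 48.6 in peripheral retina, a ratio of 1.54 (limma adjusted p = 0.0189) beside 5.11 for SNCG. That call was lost without peripheral replicate 1 or without peripheral replicate 2, when 1 of the 2 synucleins remained called.

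In the POU4 family, POU4F3 (BRN3C), which marks a subset of ganglion cells, was low throughout but separated the regions at 3.65 ± 0.363 (SD, n = 4, central) against 0.687 ± 0.119 (SD, n = 3, peripheral), a ratio of 5.31 (limma adjusted p = 5.43e-05). The vesicular glutamate transporters went opposite ways. SLC17A8 (VGLUT3), which in the retina is known from a class of amacrine cells, was 2.09 ± 0.0918 in central and 3.16 ± 0.205 in peripheral retina (log2 difference -0.43, limma adjusted p = 0.0272), while SLC17A6 was higher. The SLC17A8 call was lost under quantile normalization and when central replicate 1 or 3 or any one peripheral replicate was left out, with 0 genes of the family then called lower. NEFH, POU4F1 and SLC17A7 were not analysed here.

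A further 4 lists cover what ganglion cells and their axons are made of, read against the 12.5% of all genes called higher and the 8.76% called lower in central retina. Some calls are counted more than once. INA and PRPH, of the filament family, are also in the axon cytoskeleton list, and POU4F3 is also in the identity list. GAP43 is in both the axon cytoskeleton list and the axon injury list. Of 10 tested genes of ganglion cell identity beyond the 5, 6 were higher, 1 was lower and 3 were not called (median 1.21). NRN1, neuritin, a protein on the surface of growing neurites, had a central mean of 81.9 ± 20.3 (SD, n = 4) and a peripheral mean of 19.0 ± 5.29 (SD, n = 3). ELAVL4, a neuronal RNA-binding protein, averaged 14.6 ± 1.56 against 4.68 ± 0.282, and the nicotinic receptor gene CHRNB3 15.0 ± 3.91 against 4.04 ± 1.48. THY1, a surface glycoprotein long used to label ganglion cells, averaged 276 ± 70.3 against 66.5 ± 19.9, under a name that shares its start with another.

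The identity list also holds genes that mark subsets of ganglion cells, and these were not uniform. EOMES, of intrinsically photosensitive and related types, was 3.99 ± 0.623 (SD, n = 4) against 1.52 ± 0.0794 (SD, n = 3), higher in central retina (limma adjusted p = 0.00106). OPN4, melanopsin, the photopigment of the intrinsically photosensitive cells, was 2.19 ± 0.577 against 1.82 ± 0.487 and was not called (log2 difference 0.17, adjusted p = 0.495). SATB1 (-0.03, adjusted p = 0.897) and SOX4 (-0.69, adjusted p = 0.0713) were not called either. SPP1, osteopontin, which other cells also make, went the other way at 151 ± 44.4 against 447 ± 15.9, a log2 difference of -1.61 (limma adjusted p = 0.000372). Without peripheral replicate 3 the list counted 2 genes lower. EOMES, CHRNB3, OPN4, SATB1, SOX4 and SPP1 were named after their values had been seen.

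All 13 tested genes of the axon cytoskeleton and axon growth were higher in central retina (median 1.05). KIF5A, a kinesin motor that carries neurofilaments and other cargo along axons, averaged 139 ± 26.5 (SD, n = 4) against 36.8 ± 9.84 (SD, n = 3), a ratio of 3.77. L1CAM, an axonal adhesion molecule, averaged 45.7 ± 6.52 against 13.7 ± 2.73. STMN2, which regulates microtubules in growing axons, averaged 225 ± 50.4 against 66.8 ± 12.1. The ratio was lower for MAPT, the microtubule-binding protein tau, at 2.39 (log2 difference 1.18). All 13 log2 differences were smaller than the NEFM one of 2.63. That of KIF5A (1.90) nevertheless lay within the range of the 5 genes, above SLC17A6 (1.85). Most other neurons of the retina use these genes too.

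Of 14 tested genes of the axon initial segment, the node and the action potential, 11 were higher and 3 were not called (median 1.04). SCN2B, an auxiliary subunit of voltage-gated sodium channels, averaged 28.2 ± 2.85 (SD, n = 4) in central against 8.68 ± 2.16 (SD, n = 3) in peripheral retina. The potassium channel gene KCNA2 averaged 35.9 ± 1.79 against 13.8 ± 3.64, and KCNAB2, a subunit of such channels, 67.8 ± 6.01 against 24.1 ± 3.50. The scaffold and adhesion genes ANK3 (log2 difference 0.25, limma adjusted p = 0.282), NFASC (0.44, 0.0836) and CNTN1 (0.39, 0.0680) were not called, and they were named after their values had been seen.

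Axon injury genes were mixed. Of 8 tested, 4 were higher, 1 was lower and 3 were not called (median 0.54). CHAC1, an enzyme that breaks down glutathione under stress, was 23.5 ± 7.75 (SD, n = 4) centrally and 4.31 ± 1.49 (SD, n = 3) peripherally. GAP43, a growth cone protein, was 10.4 ± 3.16 against 5.22 ± 0.858, and MAP3K12, the kinase DLK, whose name shares its start with another, 21.1 ± 1.14 against 10.4 ± 1.49. ATF3, a transcription factor induced in injured neurons, was low at 2.18 ± 0.565 against 0.857 ± 0.351 (limma adjusted p = 0.0373). Without peripheral replicate 2 the count of higher genes was 2. ECEL1, a neuronal peptidase induced by nerve damage, was lower at 24.1 ± 7.33 against 82.8 ± 11.7 (limma adjusted p = 0.0383), a call lost when any one of the 7 regional libraries was left out. It was named after its values had been seen.

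**Figure D4:**
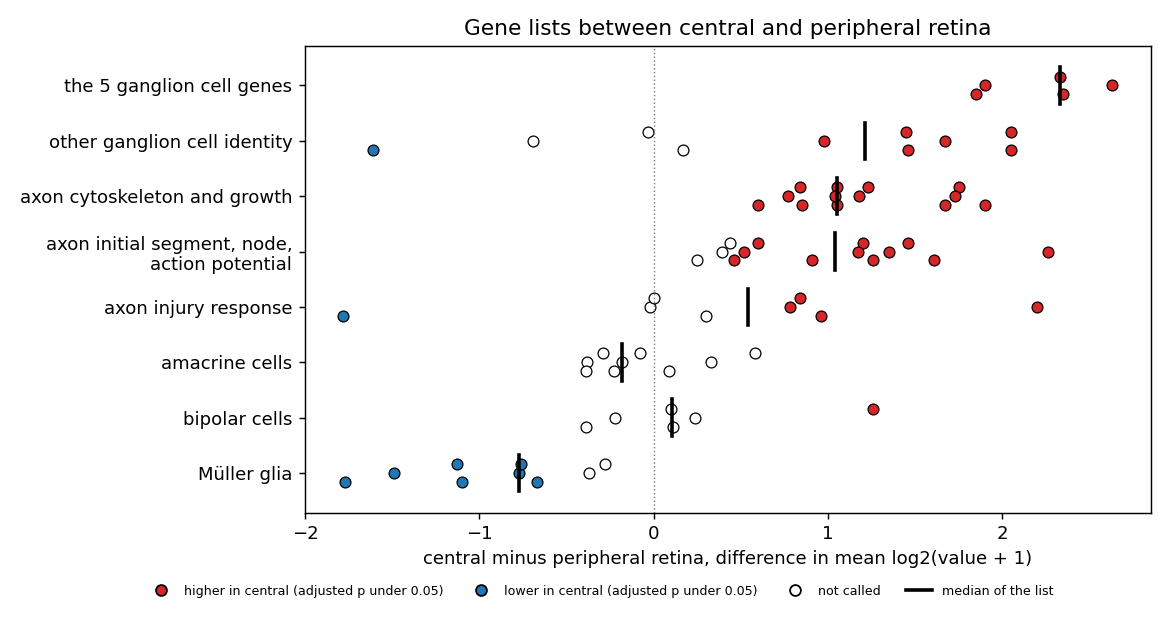
Central minus peripheral difference in mean log2(value + 1) for each tested gene of the 5 ganglion cell genes and of 7 lists; red points were called higher and blue points lower (limma adjusted p under 0.05), open points were not called, and bars mark each list's median. The 5 genes have a median of 2.33, all points of the axon cytoskeleton and axon initial segment lists lie to the right of 0, the axon injury list lies on both sides, and all Müller glia genes lie to the left.

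Counts for markers of other retinal cells are likewise read against the 12.5% of all genes called higher and the 8.76% called lower in central retina. Amacrine cells, whose displaced members share the ganglion cell layer, had 0 of 9 genes called by limma (3 at an unadjusted p under 0.05; median -0.18), with sums of 135 to 255 centrally and 147 to 282 peripherally. Without central replicate 2, 1 amacrine gene was higher, and without peripheral replicate 1, 1 was lower. GAD1, which makes the transmitter GABA, was 31.1 ± 1.25 (SD, n = 4) against 35.7 ± 5.11 (SD, n = 3). Of 6 bipolar genes 1 was higher (PCP2, median of the list 0.11), and 1 was lower without central replicate 1. The 1 horizontal cell gene tested, CALB1, was not called (log2 difference -0.15, limma adjusted p = 0.662). PCP2 shares the start of its name with another gene.

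Most Müller glia and pigment epithelium genes were lower in central retina, against the direction of the 5 genes. Of 9 Müller glia genes 7 were lower (median -0.77), against 8.76% of all genes, with sums of 1653 to 2063 centrally and 2986 to 3571 peripherally. Of 3 astrocyte genes, of cells that follow ganglion cell axons, 2 were lower (median -0.80), with sums of 4.74 to 24.1 against 18.9 to 38.6. Of 7 pigment epithelium genes 5 were lower and 1 higher (median -1.68), the higher one being MITF, which was not called without central replicate 3 or 4 or peripheral replicate 2 or 3. Of 10 rod genes 5 were lower (median -0.55), a count that fell to between 1 and 3 without central replicate 3 or 4 or any one peripheral replicate and to 3 under quantile normalization. The part of these shifts in the result for the 5 genes was not tested. MITF was named after its values had been seen.

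Cone genes were 2 of 10 higher (median 0.24; 1 higher without peripheral replicate 2, and 1 lower without central replicate 2). Of 7 vascular genes 1 was lower (KDR, median -0.05), and of 6 microglial genes none was called by limma (1 at an unadjusted p under 0.05; median -0.41). The KDR call was lost without central replicate 3 or 4 or peripheral replicate 1 or 2, and the list then counted 0. Of all genes 12.5% were called higher and 8.76% lower. Counts of 1 or 2 in lists as short as those of bipolar, cone and vascular genes are near these shares.

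The 5 genes resembled each other across the 11 libraries, with Pearson's r of log2 values from 0.925 (SNCG with SLC17A6) to 0.990 (POU4F2 with SLC17A6) over the 10 pairs. This is a description: the 4 central libraries stand apart from the other 7 for each gene, so any pair of genes higher in central retina correlates over these points, and no p is given. Among 6002 genes of sufficient level, the 5 most like each member were listed. Of these 25 places, 20 different genes filled them, and 5 genes appeared in 2 lists. All 20 were called higher in central than in peripheral retina, against 12.5% of all genes, at ratios of 2.29 to 7.43. This count follows from choosing genes by their likeness to the 5 over the same libraries, and is not a separate result. With Spearman's correlation 10 of the 25 places stayed filled by the same gene.

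NEFL was most like NRN1 (r = 0.991), MFSD6 (0.991), TTC39A (0.990), KANK4 (0.987) and THY1 (0.983). For NEFM the list was MICAL2 (0.991), an enzyme acting on actin, the homeobox gene IRX1 (0.988), ADAM23 (0.988), LYNX1 (0.987), which modulates nicotinic receptors, and HSPA12A (0.987). IRX1 had the largest regional ratio of the 20, 7.43, from a central mean of 13.4 ± 2.29 (SD, n = 4) and a peripheral mean of 1.81 ± 0.597 (SD, n = 3). TTC39A, THY1, ADAM23 and LYNX1 have names that share their start with another.

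SNCG was most like CHAC1 (r = 0.997), which is also in the injury list, OLFM1 (0.991), LPCAT4 (0.988), CEND1 (0.986) and VAMP1 (0.986), a vesicle protein needed for transmitter release. CHAC1 followed SNCG in rank through all 11 libraries (Spearman's rho 1.000). POU4F2 was most like FAR2 (0.997), ADAM23 (0.995), ELAVL2 (0.992), HSPA12A (0.990) and SV2C (0.989), a synaptic vesicle protein. SLC17A6 was most like ELAVL2 (0.996), FAR2 (0.993), STMN2 (0.992), ELAVL4 (0.983) and NRN1 (0.980). ELAVL2 and FAR2 were thus among the nearest genes of both POU4F2 and SLC17A6, and ELAVL2, an RNA-binding protein of neurons, had means of 17.5 ± 3.47 (SD, n = 4) centrally and 4.18 ± 0.866 (SD, n = 3) peripherally.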

How the data were processed

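The deposited tables give 1 normalized signal value per gene and library, per the file headers; the authors' normalization is not stated, and GSNAP and HTSeq are named in the submitters' processing notes without version. The genome build is not given in the sources used here, and coordinates are left out. Of 13083 entries, 27 without a value and 61 exact duplicates were dropped, leaving 12995. All 5 genes matched RefSeq symbols of the species.

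limma 3.58.1 (R 4.3.3) was fitted to log2(value + 1) of all 11 libraries in 4 groups, with a variance trend, on the 11933 genes whose mean reached 1 in 1 or more groups; all 5 genes passed in every group. The 6 comparisons were two-sided, with Benjamini-Hochberg adjustment within each and a threshold of 0.05; the fit was tested on simulated data. Depth is unknown, so precision rests on the spread between libraries. Alternatives were other constants (0.1 and 10), filters (a mean of 10, or none), scalings, robust variances, 2-group fits, a replicate block and leaving out each library.

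The members and the 20 gene lists were chosen with earlier results of these data known. Named genes were the 5 genes, their families, up to 4 called genes per pathway list by smallest p, up to 2 per marker list by mean, and the 5 of highest Pearson correlation with each member at a mean of at least 10 in 1 group; some, and 1 marker list, are not reported here, and additions are marked. Genes whose names share their start with another name are marked because values of such names had appeared exchanged between libraries. The marker sums hold such genes too, among them GJA1 for astrocytes and VIM, KCNJ10 and CLU for Müller glia. Figures used matplotlib 3.10.9.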

Additional observations from a re-analysis of the deposited data

Results flagged for a closer look

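NEFM in central retina had 1 library far from the others. Replicate 4 stood at 390.80, while the other 3 lay between 218.58 and 237.37, and the gap to the nearest was 0.891 of the whole range, above Dixon's 95% limit for 4 samples. It was 1 of the 5 genes checked in central retina, and chance alone puts about 1 in 20 such groups past the limit. Replicate 4 was also the highest central library for NEFL (450.93) and SNCG (2509.76), and not for POU4F2 (17.89) or SLC17A6 (52.32).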

How the results depend on the processing

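In each comparison of central retina with another tissue, all 100 values (5 genes under 20 alternatives) kept their direction and their call. Between central and peripheral retina the highest limma adjusted p was 0.00221. Filters, robust variances, 2-group fits and leaving out a library of a tissue not compared cannot change a log2 difference, only its p. Leaving out a single library cannot turn the direction of groups that do not overlap either. In peripheral retina against the whole eye, the count of 1 gene became 0 under quantile normalization, under scaling to the same sum and with the replicate block, and ran from 0 to 4 with single libraries left out; SNCG there turned to 0.22 under quantile normalization, to 0.01 under scaling to the same sum, and ran from -0.50 to 0.06 with single libraries left out (0.02 without whole eye replicate 1, 0.06 without peripheral replicate 2). Uncalled values also changed sign in peripheral against whole retina: SNCG was -0.10 with the replicate block and ran from -0.21 to 0.37 with single libraries left out, negative without whole retina replicate 2 or peripheral replicate 1 or 3; POU4F2 was 0.26 and SLC17A6 0.12 under quantile normalization, 0.12 and 0.13 under scaling to the same sum, and with single libraries left out POU4F2 ran from -0.23 to 0.12 (positive without whole retina replicate 1 or peripheral replicate 2) and SLC17A6 from -0.23 to 0.04 (positive without peripheral replicate 2). NEFL in whole retina against the whole eye ran from -0.51 to 0.05, positive without whole retina replicate 2. The cause of these changes was not tested. Of the 25 places of most similar genes, 10 stayed under Spearman's correlation.

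Replicate numbers in the labels were not used to pair samples in the main fit. Same-numbered central and peripheral libraries correlated at -0.14, -0.06 and 0.36 in their deviations from the group means. Central replicate 1 correlated best with peripheral replicate 2 (0.36), central 2 with peripheral 1 (0.35), and central 3 (0.36) and 4 (0.23) with peripheral 3. Not every sample thus correlated best with its own number. These correlations cannot decide whether same-numbered samples share an animal, since deviations within such small groups may also be technical. Whether regional samples share animals, in this or another order, is not given by the labels and was not tested. With the number as a block, 5 genes were still called higher in central than in peripheral retina, and SLC17A6 in peripheral retina against the whole eye was -0.69 (limma adjusted p = 0.0593). Depth is unknown, so no limit per gene is given, and whole eye and whole retina rest on 2 libraries each.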
